A study of Arabidopsis thaliana with 12 samples.

Results

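The C24/Col hybrid is the cross between 2 Arabidopsis thaliana accessions, C24 and Col, that carries the label name C24/Col, and its shoots were set against the mean of the parents. All 3 C24/Col libraries of the 12 in the series were used. Each was paired with a mid-parent profile, the mean of the Col and C24 libraries with the same replicate number, after all libraries had been scaled to a common level by the median of ratios. The groups were C24/Col, the other hybrid Col/C24 and the parents C24 and Col, with 3 replicates each, and all were seedling shoots taken at 14 days under short days (8 h of light, 22 °C; 16 h of darkness, 18 °C). The sources used here do not say which parent was the mother of either hybrid. Nor do they say whether replicates were separate plants, so a p-value speaks only of the spread among these libraries, which may be technical. Values are RPKM, reads per kilobase of gene and 1000000 reads.

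A hybrid that simply adds its parents carries 1 copy of each parental allele, so its transcript level lies at the mid-parent for every gene regulated in cis alone. Levels away from the mid-parent are called non-additive. They can arise where a regulator made by one genome acts on the alleles of the other, as the flowering repressor FLC acts on its targets. Hybrids of C24 and Col are known for larger rosettes than their parents have, which makes growth and stress genes of interest.

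The spacing of low values gave depths of 15.7 M to 27.2 M reads (M for 1000000). These are estimates: at the fitted depths 67.9% to 73.1% of the low values of a library lay within 0.15 of a whole read. With 3 reads a 1500 bp gene then reaches 0.074 to 0.127 RPKM, which accounts for counting error alone. RBCS1A, a Rubisco small subunit that marks green tissue, stood at 11629 ± 794 RPKM in C24/Col and 11525 ± 815 at the mid-parent (SD, n = 3). Of 6 root markers and 5 flower markers, 2 and 1 passed the filter on low values. Summed root markers lay at 101 to 112 RPKM in C24/Col and 101 to 111 at the mid-parent. Most of the root sum was 1 gene, PYK10, with 91.5 to 102 RPKM in C24/Col. Summed flower markers were lower in C24/Col, at 1.3 to 1.62 RPKM against 3.0 to 3.27 at the mid-parent. Most of this sum too was 1 gene, SEP3, with 1.16 to 1.51 RPKM in C24/Col and 2.53 to 2.83 at the mid-parent. Ribosomal RNA genes took 0.32%, 0.44% and 1.18% of the values in C24/Col replicates 1, 2 and 3, against 1.43%, 1.46% and 0.51% at the mid-parent. The share of plastid genes was likewise 0.31%, 0.43% and 0.89% in C24/Col against 1.18%, 1.38% and 0.44% at the mid-parent. The direction of both differences thus turned round in replicate 3. In bulk shoots, fewer cells of a type and less RNA per cell cannot be told apart.

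C24/Col shoots departed modestly from the mid-parent. Of 17927 genes tested, 266 (1.48%) were higher in C24/Col and 307 (1.71%) were lower, at an adjusted p under 0.05 in limma with the replicate number as a block. Together they were 3.2% of the genes tested, and 4006 genes (22.3%) had an unadjusted p under 0.05. The median log2 fold change of the called genes was 0.32 upward and -0.32 downward, on the log2(RPKM + 1) scale, which understates the change of low genes. At least 1.5-fold changes on that scale were found for 35 higher and 27 lower genes, and at least 2-fold changes for 9 and 4. All 573 called genes kept their direction in all 3 pairs. The values of the groups did not overlap for 121 of the higher and 247 of the lower genes, against 13.4% of all genes tested.

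**Figure D1:**
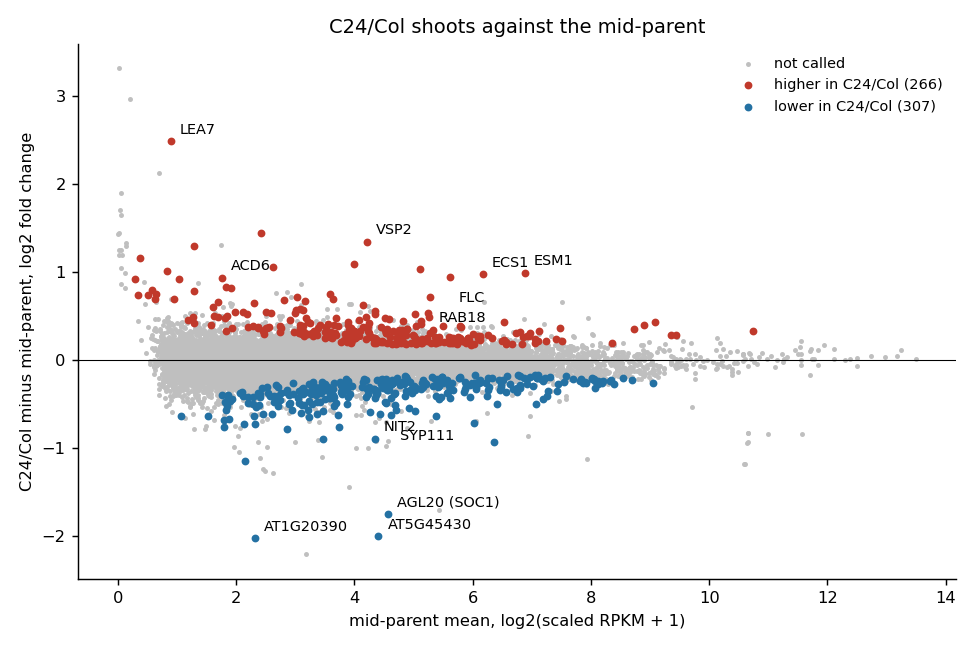
Each point is 1 of the 17927 genes tested, with its mean mid-parent level on the x axis, as log2(scaled RPKM + 1), and the log2 fold change of C24/Col minus mid-parent on the y axis. Red points are the 266 genes higher in C24/Col and blue points the 307 lower genes; most lie close to 0, with LEA7 (2.49) farthest up and AT1G20390 (-2.02) and AT5G45430 (-2.00) farthest down among them.

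These counts depended on the pairing and on each library. Without the replicate block 8 genes were called higher and 7 lower. With any 1 C24/Col library, mid-parent profile or whole replicate left out, the calls numbered 4 to 115 higher and 3 to 121 lower. In all 9 of these fits 5 genes were called, namely FLC, AGL20, VSP2, ECS1 and AT1G20390. The other called genes named below lost their call in at least 1 of the 9, and their values are to be read with that limit.

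FLC and AGL20, a pair of flowering regulators, were among the 5 genes called in all 9 leave-out fits. FLC encodes a MADS-box repressor of flowering. It had 84.7, 93.7 and 101 RPKM in C24/Col, against 46.3, 45.6 and 51.5 RPKM at the mid-parent. The groups did not overlap, and the log2 fold change was 0.95 (SE 0.04, limma adjusted p = 9.83e-05). Against a geometric mid-parent, which lies lower where the parents differ widely, it was 2.45. The parents stood far apart, with 90.7, 88.9 and 101 RPKM in C24 and 1.81, 2.3 and 2.25 RPKM in Col. C24/Col thus lay at the level of C24, with a log2 difference of -0.01 from that parent (adjusted p = 0.949).

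AGL20, better known as SOC1, encodes a floral promoter that FLC represses. It had 4.53, 6.80 and 6.99 RPKM in C24/Col, against 18.6, 24.5 and 25 RPKM at the mid-parent, a 3.72-fold lower mean (log2 fold change -1.75, SE 0.06, adjusted p = 1.8e-05). C24 had 8.66, 11.6 and 13.4 RPKM and Col had 28.6, 37.3 and 36.7 RPKM. Every C24/Col value was below every value of either parent, and the hybrid was lower than C24 by a log2 difference of -0.78 (adjusted p = 2.5e-05) and lower than Col by -2.32 (adjusted p = 8.48e-09). AGL20 was thus also below the parent with the higher FLC level.

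MAF5, a close relative of FLC, had 5.44, 6.07 and 5.45 RPKM in C24/Col, against 2.35, 3.37 and 2.62 RPKM at the mid-parent (log2 fold change 0.82, SE 0.08, adjusted p = 0.00647). It was also above both parents, which averaged 1.74 ± 0.525 RPKM in C24 and 3.82 ± 0.772 in Col. SVP, a repressor that works together with FLC, fell to 44.1, 53.7 and 52.2 RPKM in C24/Col, against 50.9, 65.4 and 66.9 RPKM at the mid-parent (log2 fold change -0.28, adjusted p = 0.0364). These SVP ranges overlapped, and the fall appeared within pairs. SEP3, a MADS-box gene of flower meristems and the one flower marker tested, had 1.31, 1.16 and 1.51 RPKM in C24/Col, against 2.53, 2.83 and 2.72 RPKM at the mid-parent (log2 fold change -0.67, adjusted p = 0.0326).

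Of 31 flowering-time genes tested from a list of 37, FLC and MAF5 rose, AGL20 and SVP fell and 27 did not pass. Each direction made up 6.45% of the list, against 1.48% higher and 1.71% lower among all genes. All gene lists used here were chosen with earlier results of these data known, so that such shares are a description. SVP was not called without the replicate block (adjusted p = 0.731). The list median was -0.01, against 0.00 over all genes tested. FRI, an activator of FLC, averaged 3.43 RPKM in C24/Col and 3.49 at the mid-parent (adjusted p = 0.912), and FLD, a repressor of FLC, averaged 6.27 RPKM in C24/Col and 6.25 at the mid-parent (adjusted p = 0.976). MAF1 (FLM), whose level differed strongly between the parents, averaged 14.3 RPKM in C24/Col against 16.3 at the mid-parent (log2 fold change -0.17, adjusted p = 0.315). FT, the mobile flowering signal, was listed at 0 in all 3 C24/Col libraries and did not pass the filter on low values.

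**Figure D2:**
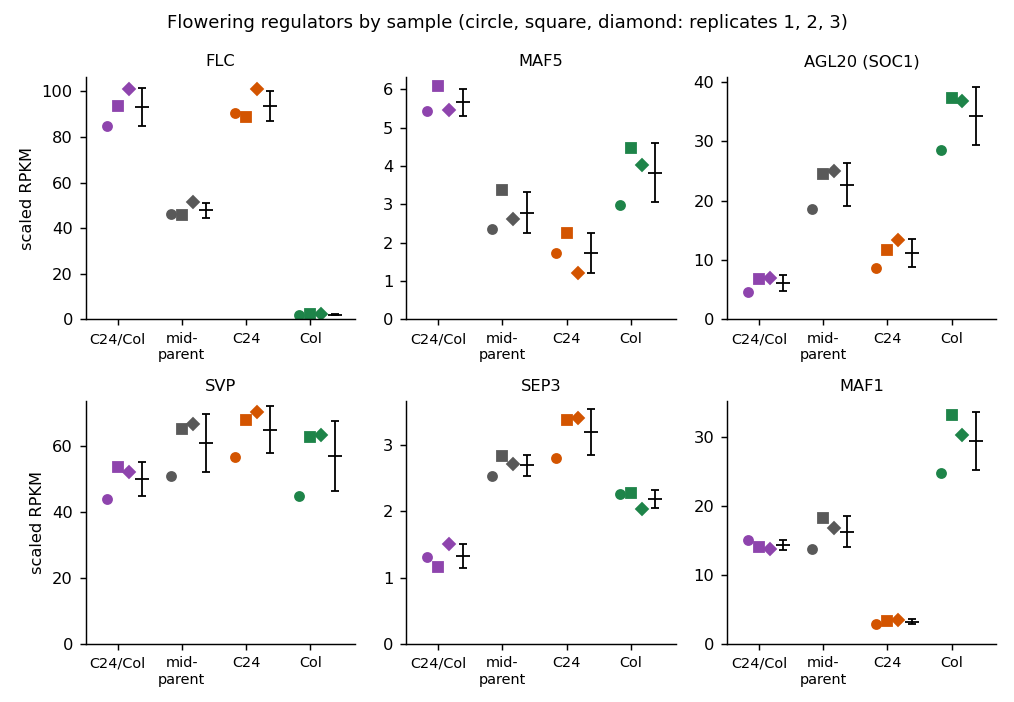
Scaled RPKM of 6 flowering regulators in C24/Col, the mid-parent profiles, C24 and Col, 1 point per replicate with mean ± SD (n = 3) beside it. FLC of C24/Col sits with C24 at 84.7 to 101, while all 3 AGL20 and SEP3 values of C24/Col sit below both parents and all 3 MAF5 values above them.

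Called genes were sorted by where the hybrid lay relative to each parent. The parents themselves differed at 7953 genes (44.4%). Among the 266 higher genes they differed at 156, with C24 the higher parent at 90 and Col at 66. Among the 307 lower genes they differed at 223, and there C24 was the higher parent at 54 and Col at 169. The same split over all 7953 genes is not given here, so that the splits of the called genes have no background beside them. For 127 of the higher genes C24/Col did not pass against the nearer parent but did against the other, and the nearer parent was C24 for 79 and Col for 48. For 152 of the lower genes the same held, with C24 nearer for 127 and Col for 25. A p that misses the threshold does not show that hybrid and parent are equal.

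ECS1, a cell wall protein gene, lay at the level of Col. It had 137, 161 and 126 RPKM in C24/Col, against 67.7, 73.4 and 71.7 RPKM at the mid-parent (log2 fold change 0.98, SE 0.06, adjusted p = 0.000925). Against a geometric mid-parent it was 3.49. C24 had 0.154, 0.0688 and 0.125 RPKM, and Col had 135, 147 and 143 RPKM. The hybrid thus held the full Col level although C24 alone had almost no transcript. GER2, a germin-like protein gene, had the same order, with 3.80, 3.10 and 5.71 RPKM in C24/Col, against 4.18, 3.99 and 5.22 RPKM in Col, while every C24 library listed it at 0 (adjusted p = 0.0212 against the mid-parent).

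AT1G20390, annotated as a pseudogene on chromosome 1, lay near the lower parent instead. It had 0.221, 0.300 and 0.177 RPKM in C24/Col, against 4.37, 3.48 and 4.14 RPKM at the mid-parent, a 17.2-fold lower mean (log2 fold change -2.02, adjusted p = 0.000152). C24 was listed at 0, 0 and 0.0289 RPKM and Col at 8.75, 6.95 and 8.25 RPKM. BHLH101, a transcription factor of the iron-deficiency response, showed a like order, with 1.05, 1.1 and 0.689 RPKM in C24/Col, against 2.7, 2.5 and 5.08 RPKM at the mid-parent (log2 fold change -1.14, adjusted p = 0.0448). Its C24 values were 0 to 0.059 RPKM and its Col values 4.93 to 10.1 RPKM. In both genes the hybrid stood nearer to the parent with little transcript.

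NIT2, a nitrilase gene, averaged 10.2 ± 3.68 RPKM in C24/Col and 19.4 ± 5.43 at the mid-parent (adjusted p = 0.0389). Its C24 values of 2.02, 2.64 and 16.1 RPKM show that C24 replicate 3 stood apart for this gene. AT5G45430, a protein kinase gene, had 3.20, 4.26 and 5.66 RPKM in C24/Col, against 23.0, 18.5 and 19.1 RPKM at the mid-parent (log2 fold change -2.00, adjusted p = 0.00294). The locus AT5G45428, which has no match in the TAIR10.1 annotation used here, went the other way at 36.8, 33.3 and 28.3 RPKM in C24/Col against 13.0, 16.3 and 15.2 RPKM at the mid-parent (adjusted p = 0.0044). How reads were divided between these loci is not stated, so that both values are uncertain. ABS2, a B3-domain transcription factor gene, averaged 3.27 ± 0.878 RPKM in C24/Col and 6.25 ± 1.04 at the mid-parent (adjusted p = 0.0167), near C24 (4.01 ± 1.07 RPKM).

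Some falls belonged to genes with a wide gap between the parents and a hybrid between them. AT1G67865 averaged 42.4 ± 5.50 RPKM in C24/Col and 81.5 ± 3.63 at the mid-parent (log2 fold change -0.93, adjusted p = 0.00424), with 9.46 ± 0.962 RPKM in C24 and 153 ± 7.18 in Col. AT3G28320 averaged 6.95 ± 0.311 RPKM in C24/Col and 12.4 ± 0.657 at the mid-parent (log2 fold change -0.75, adjusted p = 0.00424), and HPL1, a hydroperoxide lyase gene of leaf volatiles, averaged 5.24 ± 0.712 RPKM in C24/Col and 8.31 ± 1.92 at the mid-parent (log2 fold change -0.56, adjusted p = 0.0286). Against the geometric in place of the arithmetic mean of the parents, these 3 genes had log2 fold changes of 0.11, 0.63 and 0.23 (limma adjusted p = 0.448, 0.0015 and 0.188). Their sign turned round, and only AT3G28320 passed in the new direction. AT1G53885 averaged 11.9 ± 3.50 RPKM in C24/Col and 5.16 ± 1.36 at the mid-parent (log2 fold change 1.06, adjusted p = 0.00424), above Col (8.39 ± 2.85 RPKM) without passing against it (adjusted p = 0.0641).

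**Figure D3:**
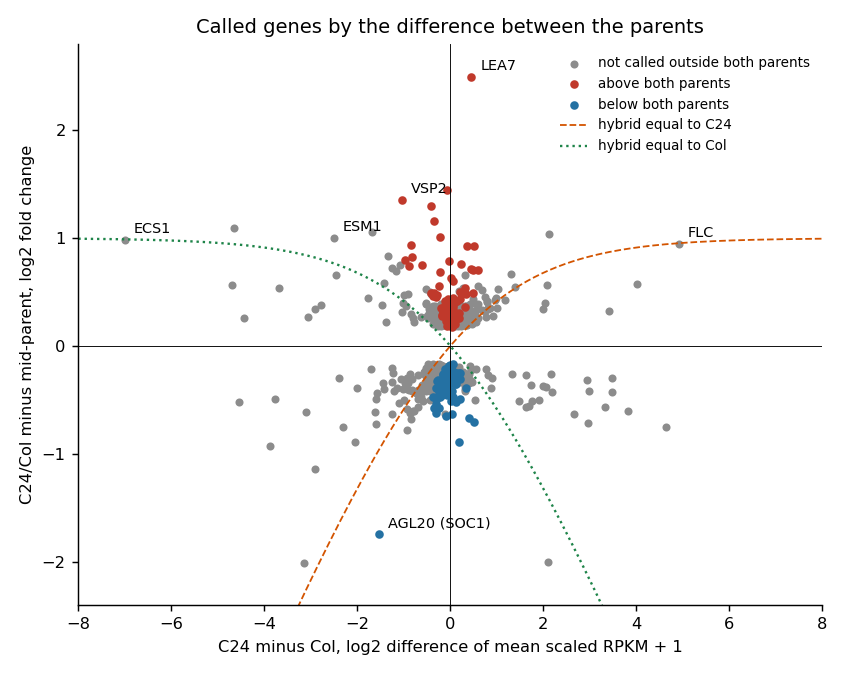
Each point is 1 of the 573 called genes, with the log2 difference of C24 minus Col on the x axis and the log2 fold change of C24/Col minus mid-parent on the y axis. The dashed and dotted lines show where a hybrid equal to C24 or to Col would lie: FLC lies on the C24 line and ECS1 on the Col line, and AGL20, LEA7 and VSP2 lie outside both.

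Genes of cell division were lower in C24/Col than at the mid-parent. Of 28 cell division and DNA replication genes tested, 11 (39.3%) fell, none rose and 17 did not pass, against 1.71% lower among all genes tested. The fall is relative to the mean of the parents: 4 of the 28 were called below both parents, against 0.753% of all genes tested. The list median was -0.30, against 0.00 over all genes, and 27 of 28 members had a negative fold change. The pair medians were -0.30, -0.23 and -0.23. In each pair the summed level was lower, at 215, 226 and 220 RPKM in C24/Col against 263, 284 and 265 RPKM at the mid-parent. The list was chosen with earlier results of these data known.

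The genes that fell act at several steps. SYP111 (KNOLLE), the syntaxin that fuses vesicles into the new cell plate, had 17.3, 13.6 and 14.4 RPKM in C24/Col, against 22.5, 23.8 and 24.7 RPKM at the mid-parent (log2 fold change -0.62, SE 0.11, adjusted p = 0.0326). CYCB1;1, a mitotic cyclin, had 2.37, 2.23 and 2.17 RPKM in C24/Col, against 3.42, 3.67 and 3.63 RPKM at the mid-parent (log2 fold change -0.49, SE 0.07, adjusted p = 0.0214). The groups of both genes did not overlap. CYCB1;1 was below both parents, whereas SYP111 did not pass against C24 (log2 difference -0.13, adjusted p = 0.479).

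The cytokinesis genes HIK, a kinesin, and PLE, a microtubule-associated protein, had log2 fold changes of -0.36 and -0.39. The cyclins CYCB1;4, CYC1BAT (CYCB1;2) and CYCD3;3 gave -0.38, -0.37 and -0.39, and the mitotic kinases CDKB2;1 and CDKB2;2 gave -0.24 and -0.36. PCNA1 and PCNA2, the sliding clamps of DNA polymerase, both gave -0.32. The 6 MCM helicase genes on the list also had negative fold changes, and none passed. Off the list, TSO2, a ribonucleotide reductase subunit that supplies deoxynucleotides, averaged 21.1 ± 3.60 RPKM in C24/Col and 31.7 ± 1.64 at the mid-parent (log2 fold change -0.58, adjusted p = 0.0167). CDC20.1, an activator of the anaphase-promoting complex, averaged 11.8 ± 0.998 RPKM in C24/Col and 18.1 ± 0.767 at the mid-parent (log2 fold change -0.58, adjusted p = 0.0163). TSO2 was called below both parents. CDC20.1 was near C24 (12.2 ± 1.03 RPKM, log2 difference -0.04, limma adjusted p = 0.753) and below Col (24.1 ± 1.47 RPKM).

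**Figure D4:**
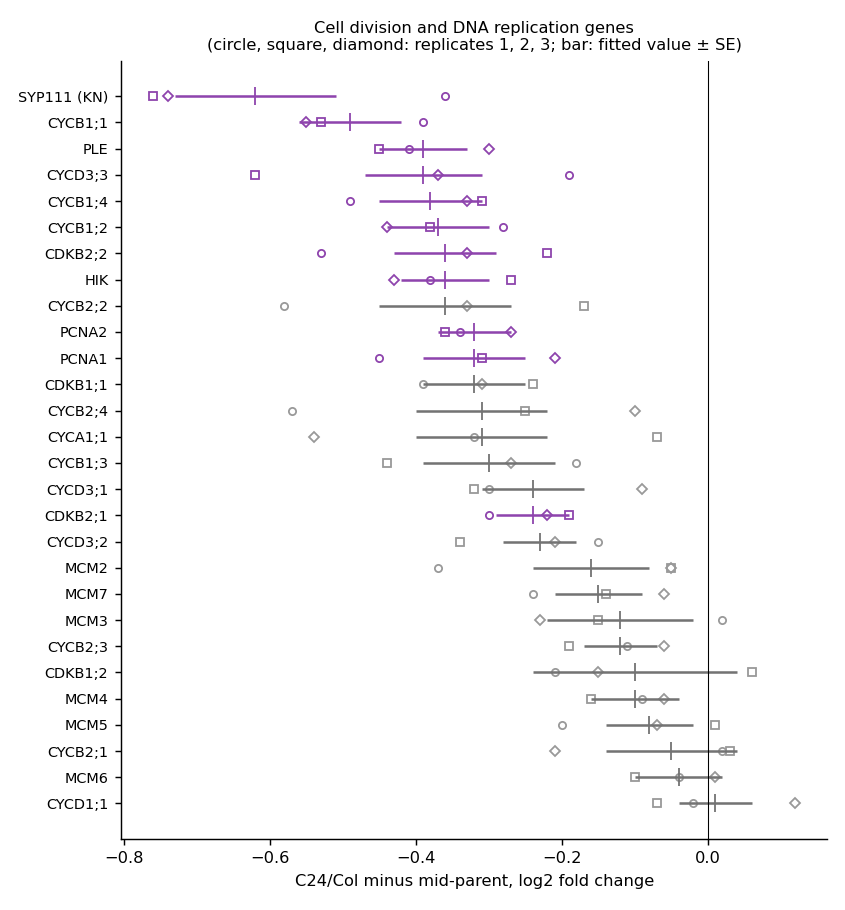
Log2 fold change of C24/Col minus mid-parent for the 28 cell division and DNA replication genes, with 1 open symbol per replicate pair and the fitted value ± SE as a bar. Purple marks the 11 genes called lower and grey the rest, and all but CYCD1;1 lie below 0.

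The calls of this list were sensitive. None was left without the replicate block, 5 with the ribosomal RNA share of each profile as a covariate, an alternative added after seeing the data, and 0 to 4 with a library, profile or replicate left out. Its median stayed between -0.33 and -0.25 in the fits with a library, profile or replicate left out.

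Promoters of the genes that moved together were searched for short motifs, in a window from 250 bases before to 50 bases after the RefSeq gene start in TAIR10.1. AACGG is the core of the element bound by MYB factors that act in mitosis. It occurred on either strand in 26.7% of 17781 promoters, in 39.5% of 306 promoters of lower genes, in 53.6% of the 28 cell division promoters and in 7 of the 11 that fell. These shares are a description with no test, and a match is not a bound site. The promoters of SYP111 (chr1:2710951-2711250, minus strand) and CYCB1;1 (chr4:17624259-17624558, minus strand) are shown because both genes fell and each holds 3 matches, in capitals.
SYP111: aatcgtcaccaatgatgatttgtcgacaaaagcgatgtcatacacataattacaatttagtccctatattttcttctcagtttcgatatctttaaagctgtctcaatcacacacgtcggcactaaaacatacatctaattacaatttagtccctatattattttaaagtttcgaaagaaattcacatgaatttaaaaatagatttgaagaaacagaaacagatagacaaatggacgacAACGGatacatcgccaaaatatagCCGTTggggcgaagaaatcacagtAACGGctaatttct
CYCB1;1: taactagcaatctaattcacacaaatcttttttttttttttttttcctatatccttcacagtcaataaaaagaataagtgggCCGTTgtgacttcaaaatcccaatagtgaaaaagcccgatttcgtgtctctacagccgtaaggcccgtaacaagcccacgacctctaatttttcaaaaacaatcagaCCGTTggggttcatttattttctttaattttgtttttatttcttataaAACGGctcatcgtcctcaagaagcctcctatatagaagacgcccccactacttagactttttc

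Of the shade and auxin growth genes, PIF4 and EXPA8 rose. They were 2 of 21 genes tested (9.52%, against 1.48% higher among all genes), none fell and 19 did not pass. The median was 0.21, and 20 of 21 fold changes were positive, against 8866 positive and 9061 negative over all genes. Neither was called without the replicate block. PIF4, a transcription factor that promotes elongation growth, had 139, 166 and 173 RPKM in C24/Col, against 125, 140 and 143 RPKM at the mid-parent (log2 fold change 0.22, SE 0.04, adjusted p = 0.0352). EXPA8, a cell wall-loosening expansin, had 30.1, 60.7 and 44.9 RPKM in C24/Col, against 18.3, 41.2 and 35.4 RPKM at the mid-parent (log2 fold change 0.52, SE 0.08, adjusted p = 0.0272). Both showed overlapping ranges and a rise within each pair. HB-2, a shade-induced homeodomain factor, had a log2 fold change of 0.46 (adjusted p = 0.0517), the auxin repressor gene IAA29 had 0.34 (adjusted p = 0.0961) and PIF3 had -0.26 (adjusted p = 0.0743).

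LEA7, a late embryogenesis abundant (LEA) gene, had the largest log2 fold change among the called genes. Products of this family are small hydrophilic proteins that protect drying cells, and many of the genes respond to abscisic acid. LEA7 had 5.60, 18.7 and 7.74 RPKM in C24/Col, against 1.12, 0.652 and 0.813 RPKM at the mid-parent (log2 fold change 2.49, SE 0.54, adjusted p = 0.0493). All C24/Col values were above all mid-parent values, and replicate 2 was far above the others. AT3G02480, another LEA family gene, had 7.01, 19.0 and 18.3 RPKM in C24/Col, against 3.96, 4.24 and 4.89 RPKM at the mid-parent (log2 fold change 1.45, adjusted p = 0.0364). LEA4-5 had 1.14, 2.33 and 2.33 RPKM in C24/Col, against 0.243, 0.424 and 0.197 RPKM at the mid-parent (log2 fold change 1.16, adjusted p = 0.0168). All 3 genes were above both parents. They were chosen by the size of their change, and other LEA genes were not counted. LEA4-5 reached 1 RPKM in the 3 C24/Col libraries and in no other, so that it entered the test only through the group in which it was high. LEA7 reached 1 RPKM in 2 of the 6 parental libraries.

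The dehydrin gene RAB18 had 58.6, 68.0 and 62.3 RPKM in C24/Col, against 36.9, 39.7 and 36.9 RPKM at the mid-parent (log2 fold change 0.72, SE 0.08, adjusted p = 0.00926). It was above C24 (43.7 ± 1.51 RPKM) and above Col (31.9 ± 2.89 RPKM). LTI65 (RD29B) had 2.27, 3.69 and 2.8 RPKM in C24/Col, against 0.741, 1.3 and 1.12 RPKM at the mid-parent (log2 fold change 0.93, adjusted p = 0.0389). RD26, a NAC factor of the drought response, averaged 31.7 ± 4.77 RPKM in C24/Col and 25.7 ± 5.19 at the mid-parent (log2 fold change 0.30, adjusted p = 0.029). These 3 were the rises among 26 abscisic acid, drought and cold genes (11.5%, against 1.48% higher among all genes); none fell, 23 did not pass, and the median was 0.14. With ribosomal RNA share added to the model 2 genes of the list were higher and 2 lower, and without C24/Col replicate 1 there was 1 each way.

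None of the other members passed. COR15A, a cold-induced chloroplast protein gene, averaged 191 RPKM in C24/Col and 168 at the mid-parent (adjusted p = 0.0527). LTI78 (RD29A), a relative of LTI65, averaged 15.1 RPKM in C24/Col and 20.3 at the mid-parent (adjusted p = 0.0653), and KIN1 averaged 4.04 RPKM in C24/Col and 5.89 at the mid-parent (adjusted p = 0.0635). The abscisic acid synthesis gene NCED3 averaged 7.15 RPKM in C24/Col and 4.62 at the mid-parent (adjusted p = 0.15). RAB18 alone of the list was called without the replicate block (adjusted p = 0.0363).

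Seed storage genes, the markers of embryos, moved in some of these libraries. Their sum was 29.2, 0.145 and 148 RPKM in C24/Col replicates 1, 2 and 3, against 0.18, 0.525 and 0.168 RPKM at the mid-parent, and 4 of 9 genes passed the filter with none called. CRA1, a cruciferin, had 12.2, 0.087 and 49.6 RPKM in C24/Col against 0.0722 to 0.24 RPKM at the mid-parent. In C24/Col replicate 2, where CRA1 was at the level of the parents, LEA7 was at its highest (18.7 RPKM), as were RAB18 and LTI65. In Col/C24 the seed storage sum was 58.6, 0.314 and 0.312 RPKM, and LEA7 had 6.96, 1.32 and 7.61 RPKM. NSP2, a nitrile-specifier gene, had 2.94, 0 and 4.03 RPKM in C24/Col and was thus high in the same libraries as CRA1. It counted as above both parents although replicate 2 was at 0, and it reached 1 RPKM in hybrid libraries alone, so that it entered the test only through them. The part of seed storage transcripts in the rise of NSP2, LEA7, RAB18 or LTI65 was not tested.

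**Figure D5:**
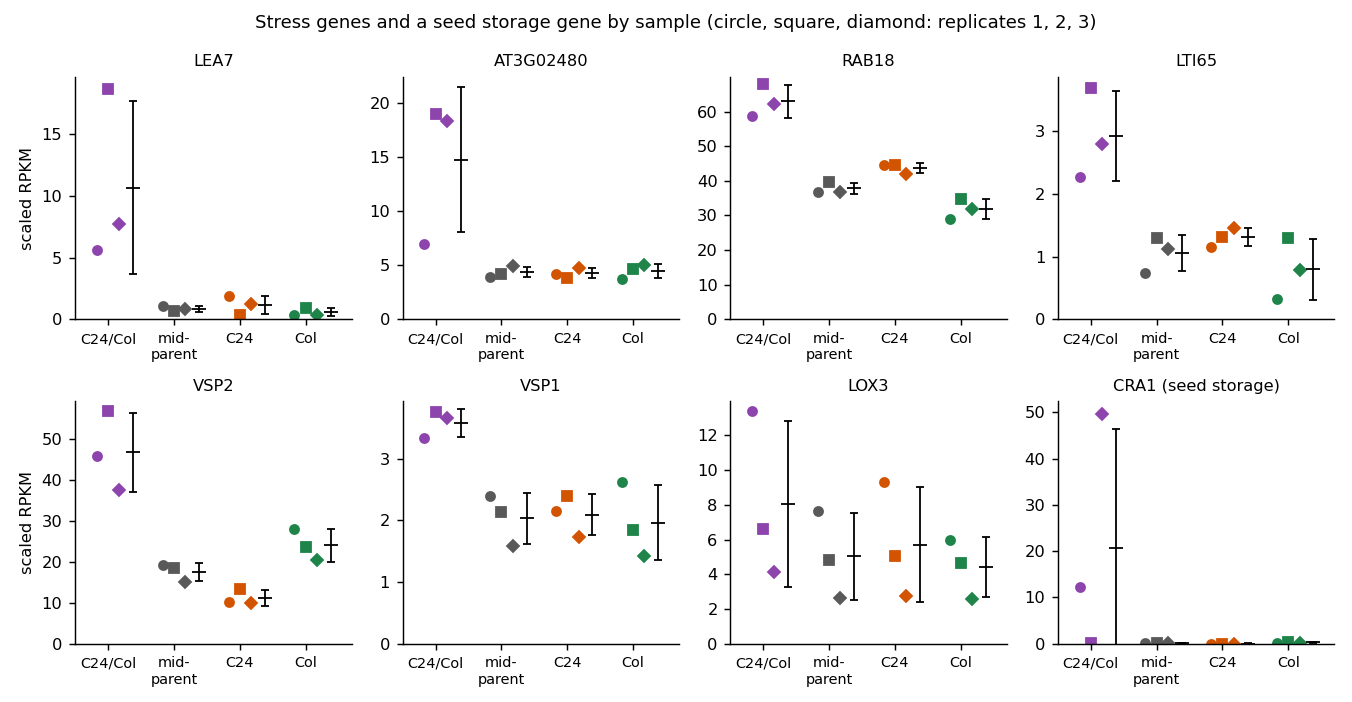
Scaled RPKM of LEA, dehydrin and jasmonate genes and of the seed storage gene CRA1 in C24/Col, the mid-parent profiles, C24 and Col, 1 point per replicate with mean ± SD (n = 3) beside it. LEA7, AT3G02480, RAB18, LTI65, VSP2 and VSP1 have all 3 C24/Col values above the parents, whereas CRA1 is near 0 in C24/Col replicate 2.

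ACGTG, the core of the element through which abscisic acid activates genes, occurred on either strand in 27.6% of 17781 promoters in the same window. The share was 32.7% in 263 promoters of higher genes, 35.8% in 106 promoters of genes above both parents and 50% in the 26 of the abscisic acid list. In 306 promoters of lower genes it was 29.4%. As for AACGG, these shares are a description with no test, and a match is not a bound site. The promoters of RAB18 (chr5:26519398-26519697, minus strand), LTI65 (chr5:21236771-21237070, plus strand) and LEA7 (chr1:19619474-19619773, plus strand) are shown because these genes rose together. Matches are in capitals and number 3, 4 and 5; the palindrome CACGTG of LEA7 counts as 2 overlapping matches.
RAB18: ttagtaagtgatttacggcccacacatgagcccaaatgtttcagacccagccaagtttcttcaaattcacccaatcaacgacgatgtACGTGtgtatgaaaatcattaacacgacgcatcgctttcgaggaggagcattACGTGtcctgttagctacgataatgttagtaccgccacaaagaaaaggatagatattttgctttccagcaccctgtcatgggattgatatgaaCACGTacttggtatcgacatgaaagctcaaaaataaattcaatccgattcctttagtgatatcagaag
LTI65: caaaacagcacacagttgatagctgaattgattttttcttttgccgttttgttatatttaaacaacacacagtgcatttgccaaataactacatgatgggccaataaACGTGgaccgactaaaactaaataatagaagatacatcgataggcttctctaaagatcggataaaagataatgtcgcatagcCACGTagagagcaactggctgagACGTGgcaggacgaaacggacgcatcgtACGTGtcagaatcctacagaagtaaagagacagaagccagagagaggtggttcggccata
LEA7: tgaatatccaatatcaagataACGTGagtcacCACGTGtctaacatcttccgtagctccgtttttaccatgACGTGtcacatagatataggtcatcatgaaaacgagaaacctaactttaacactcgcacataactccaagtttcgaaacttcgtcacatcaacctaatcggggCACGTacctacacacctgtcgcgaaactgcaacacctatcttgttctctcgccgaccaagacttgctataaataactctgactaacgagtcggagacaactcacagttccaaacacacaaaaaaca

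Jasmonate is the hormone of wounding and of the defence against chewing insects. Of 19 genes tested, 3 rose (15.8%, against 1.48% higher among all genes), none fell and 16 did not pass. The list median was 0.17, with pair medians of -0.10, 0.28 and 0.31, and it ran from 0.06 to 0.34 with a library, profile or replicate left out. The summed level was 738, 714 and 535 RPKM in C24/Col, against 790, 692 and 492 RPKM at the mid-parent, so that pair 1 went the other way. VSP2, an acid phosphatase gene that jasmonate induces, had 45.8, 56.7 and 37.6 RPKM in C24/Col, against 19.2, 18.5 and 15.1 RPKM at the mid-parent, a 2.66-fold higher mean (log2 fold change 1.35, SE 0.07, adjusted p = 0.000146). It exceeded C24 (11.1 ± 1.96 RPKM) and Col (24 ± 3.94 RPKM). Its relative VSP1 had 3.33, 3.76 and 3.66 RPKM in C24/Col, against 2.39, 2.13 and 1.58 RPKM at the mid-parent (log2 fold change 0.60, adjusted p = 0.0427). VSP1 and VSP2 are close in sequence, and how shared reads were assigned is not stated.

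LOX3, a lipoxygenase at the entry of jasmonate synthesis, had 13.4, 6.62 and 4.13 RPKM in C24/Col, against 7.65, 4.83 and 2.66 RPKM at the mid-parent (log2 fold change 0.54, adjusted p = 0.0212). Its ranges overlapped widely, and only the pairing showed the rise. LOX2, the main leaf lipoxygenase, averaged 129 RPKM in C24/Col and 175 at the mid-parent (adjusted p = 0.192). The synthesis gene AOS stayed close, at 83.8 RPKM in C24/Col and 87.2 at the mid-parent, and the repressor genes JAZ1 and JAZ10 had log2 fold changes of 0.25 and 0.40 (adjusted p = 0.603 and 0.125). VSP2 alone was called without the replicate block (adjusted p = 0.0481).

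Among immune genes the calls were upward. Of 18 immune receptor genes tested, 4 rose (22.2%, against 1.48% higher among all genes), none fell, and 17 had a positive fold change, with a median of 0.17. This list too was chosen with earlier results of these data known. RPP8, an intracellular receptor, had 39.4, 36.1 and 38.3 RPKM in C24/Col, against 31.2, 29.6 and 31.4 RPKM at the mid-parent (log2 fold change 0.29, adjusted p = 0.0183). FLS2, the flagellin receptor, averaged 18.9 ± 4.14 RPKM in C24/Col and 14.3 ± 2.45 at the mid-parent (log2 fold change 0.37, adjusted p = 0.0286). HR4, of the RPW8 family, had 46.7, 17.8 and 23.1 RPKM in C24/Col against 31.7, 13.1 and 13.5 RPKM at the mid-parent, with replicate 1 high in both (log2 fold change 0.56, adjusted p = 0.0364; 1.93 against a geometric mid-parent). RLM3 gave a log2 fold change of 0.27 (adjusted p = 0.0201). None of the 4 was called without the replicate block.

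Of 15 salicylic acid genes tested, ACD6 rose (6.67%, against 1.48% higher among all genes) and 14 did not pass. In a list this short 1 gene makes up that share. ACD6, an ankyrin protein that activates defence and limits growth in some accessions, had 4.40, 7.46 and 4.88 RPKM in C24/Col, against 2.29, 2.52 and 2.3 RPKM at the mid-parent (log2 fold change 0.94, SE 0.12, adjusted p = 0.0167). It lay above both parents, which averaged 1.41 ± 0.182 RPKM in C24 and 3.32 ± 0.435 in Col.

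Glucosinolates are sulphur compounds of the mustard family that myrosinases split on wounding. Of 31 genes tested, 3 rose (9.68%, against 1.48% of all genes), 2 fell (6.45%, against 1.71%) and 26 did not pass, with a median of -0.07. The rises were breakdown genes. ESM1, which favours isothiocyanates over nitriles, had 153, 301 and 267 RPKM in C24/Col, against 88.0, 131 and 132 RPKM at the mid-parent (log2 fold change 1.0, SE 0.09, adjusted p = 0.00424). It stood near Col (200 ± 45.7 RPKM) and far above C24 (34.4 ± 5.14 RPKM).

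The myrosinase genes TGG2 and TGG1 averaged 628 ± 55.9 and 2144 ± 122 RPKM in C24/Col, against 473 ± 33.3 and 1707 ± 87.0 RPKM at the mid-parent (log2 fold changes 0.41 and 0.33, adjusted p = 0.0282 and 0.0352). TGG2 lay at the level of C24 (601 ± 66.1 RPKM). The falls were synthesis genes of the aliphatic branch. CYP79F1 averaged 18.9 ± 3.22 RPKM in C24/Col and 24.8 ± 4.54 at the mid-parent (log2 fold change -0.37, adjusted p = 0.0423), and BCAT4 averaged 81.5 ± 6.61 RPKM in C24/Col and 98.6 ± 14.6 at the mid-parent (log2 fold change -0.26, adjusted p = 0.0413). None of these 5 was called without the replicate block. With a geometric mid-parent the list had 9 rises and no falls.

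DFR, an anthocyanin synthesis enzyme, was the only call among 10 flavonoid genes tested. DFR had 11.3, 13.6 and 9.79 RPKM in C24/Col, against 8.11, 8.59 and 5.54 RPKM at the mid-parent (log2 fold change 0.59, adjusted p = 0.0113). It stood at the level of Col (11.3 ± 2.73 RPKM), above C24 (3.56 ± 0.654 RPKM).

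None of the 43 photosystem and Rubisco genes or the 20 chlorophyll synthesis genes tested from the lists was called, with medians of 0.03 and -0.07. Of all genes tested 3.2% were called in either direction, so that no call in lists of this size is near that share. LHB1B2, a light-harvesting protein gene, averaged 10517 ± 750 RPKM in C24/Col and 9655 ± 516 at the mid-parent (adjusted p = 0.36). CRD1 and PORB, chlorophyll synthesis enzymes, had log2 fold changes of 0.02 and 0.05 (adjusted p = 0.889 and 0.657). Of 22 clock genes, 1 rose and 1 fell (4.55% each, against 1.48% higher and 1.71% lower among all genes). GI rose to 22.1, 23.1 and 22.7 RPKM in C24/Col, against 18.0, 19.1 and 19.5 RPKM at the mid-parent (log2 fold change 0.25, adjusted p = 0.0272). CCA1, the morning oscillator gene, fell to 11.9, 8.42 and 5.61 RPKM in C24/Col, against 14.3, 9.83 and 8.05 RPKM at the mid-parent (log2 fold change -0.30, adjusted p = 0.0427), with overlapping ranges. BAM1, a starch-degrading amylase, was the single call among 16 starch genes (log2 fold change 0.23, adjusted p = 0.0351). That is 6.25% of the list, against 1.48% higher among all genes.

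The list of DNA methylation and small RNA genes gave 1 call and that of splicing regulators none. The 1 call was 5.26% of the 19 genes tested, against 1.48% higher among all genes. In either direction 3.2% of all genes were called. DML1 (ROS1), a DNA demethylase, had 16.7, 16.6 and 16.7 RPKM in C24/Col, against 14.2, 14.7 and 14.3 RPKM at the mid-parent (log2 fold change 0.20, adjusted p = 0.0453), and the other 18 DNA methylation and small RNA genes did not pass. MET1, the maintenance methyltransferase, averaged 9.15 RPKM in C24/Col and 9.48 at the mid-parent (adjusted p = 0.636). Among the 23 splicing regulators tested was SR34 with 99.8 ± 5.39 RPKM in C24/Col and 100 ± 12.2 at the mid-parent (adjusted p = 0.98).

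Heat shock genes varied with the replicate. None of 13 was called, against 3.2% of all genes tested. Their median was -0.59, with pair medians of -1.22, -0.28 and -0.33. HSP70 had 71.8, 14.7 and 11.8 RPKM in C24/Col, against 159, 18.4 and 18.6 RPKM at the mid-parent (adjusted p = 0.144), so that replicate 1 was high in both. The summed level was 246, 59.1 and 56.6 RPKM in C24/Col and 560, 71.0 and 81.5 RPKM at the mid-parent. The 8 touch genes gave no call either, and TCH3, a calmodulin-like gene, had 1113, 285 and 196 RPKM in C24/Col against 1038, 253 and 193 RPKM at the mid-parent.

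C24/Col was then tested against each parent itself, with all 12 libraries in 1 fit. It was above both parents at 107 genes (0.597%) and below both at 135 (0.753%). Of these, 80 and 85 were also called against the mid-parent. Of the 107, 8 passed the filter on low values only with the C24/Col libraries, as did 4 of the 266 genes higher than the mid-parent. Fewer than 3 parental libraries reached 1 RPKM at 12 of the 107 and at 9 of the 266. The same held for 370 of the 17927 genes tested. Such genes passed the filter only with hybrid libraries. Besides LEA7, AT3G02480, LEA4-5, RAB18, VSP2, MAF5 and ACD6, the genes above both parents included ATL8, a ubiquitin ligase gene that carbon starvation induces, with 9.98, 8.68 and 11.8 RPKM in C24/Col against 7.71, 4.75 and 5.49 RPKM at the mid-parent (adjusted p = 0.023). Col had 9.41, 4.64 and 5.51 RPKM of ATL8, so that its replicate 1 exceeded C24/Col replicate 2. A call outside both parents thus does not mean that single values are apart. DR4, a drought-repressed gene, averaged 12.2 ± 0.872 RPKM in C24/Col and 7.19 ± 2.12 at the mid-parent (adjusted p = 0.0318) but did not pass against Col (10.5 ± 3.59 RPKM). AT5G66053, whose annotated span lies within that of AT5G66052 so that reads may be shared, had 3.69, 6.79 and 4.66 RPKM in C24/Col against 0.996, 1.84 and 1.47 RPKM at the mid-parent (log2 fold change 1.3, adjusted p = 0.0181). AT1G72060, a protease inhibitor gene, averaged 2.64 ± 0.778 RPKM in C24/Col and 0.787 ± 0.199 at the mid-parent (adjusted p = 0.00926). It reached 1 RPKM in only 1 parental library, so that it entered the test through the hybrids, in which it was high.

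Genes below both parents included VTC5, an enzyme of ascorbate synthesis, which had 6.48, 8.73 and 7.72 RPKM in C24/Col against 12.4, 13.5 and 10.9 RPKM at the mid-parent (log2 fold change -0.62, adjusted p = 0.0153). BGLU18, a glucosidase that can release abscisic acid from its conjugate, had 39.2, 40.7 and 34.4 RPKM in C24/Col against 61.2, 78.1 and 51.7 RPKM at the mid-parent (log2 fold change -0.71, adjusted p = 0.0212). The C24/Col and mid-parent values of both did not overlap, although C24 replicate 3 had 8.67 RPKM of VTC5. CYP81D11, a cytochrome P450 gene, averaged 2.14 ± 0.287 RPKM in C24/Col and 3.92 ± 1.12 at the mid-parent (log2 fold change -0.63, adjusted p = 0.0307). Its Col replicate 1, at 2.34 RPKM, lay below C24/Col replicate 2, at 2.44 RPKM. AT1G09500, an oxidoreductase family gene, averaged 5.07 ± 1.33 RPKM in C24/Col and 10.1 ± 0.925 at the mid-parent (log2 fold change -0.89, adjusted p = 0.0181). ENODL14, a plastocyanin-like protein gene, averaged 19.8 ± 1.67 RPKM in C24/Col and 29.3 ± 1.57 at the mid-parent (log2 fold change -0.54, adjusted p = 0.0168). The plastid locus ATCG01020 averaged 4.93 ± 1.18 RPKM in C24/Col and 8.34 ± 2.19 at the mid-parent (adjusted p = 0.0364), in libraries whose plastid share differed as given above. AT1G51055 (0.221, 0.619 and 0.384 RPKM in C24/Col, against 1.17, 1.26 and 1.16 RPKM at the mid-parent) was below each parent without passing against the mid-parent (adjusted p = 0.0581). AT5G10946 averaged 2.72 ± 0.982 RPKM in C24/Col and 4.24 ± 1.12 at the mid-parent (adjusted p = 0.0452). Without the replicate block 19 genes were above and 11 below both parents. Without replicate 1, 2 or 3 there were 15 to 86 above and 12 to 75 below.

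The departure of C24/Col was compared with that of Col/C24 by testing the hybrids against each other. No gene passed in limma, the smallest adjusted p was 0.153, and 1027 genes (5.73%) had an unadjusted p under 0.05. Values as deposited gave 2377 such genes and a smallest adjusted p of 0.0916. Without the replicate block there were 376, with a smallest adjusted p of 0.767. Both hybrids share the mid-parent, so their values are given side by side. FLC had 84.7, 93.7 and 101 RPKM in C24/Col and 90.6, 98.2 and 105 RPKM in Col/C24. AGL20 had 4.53, 6.8 and 6.99 RPKM in C24/Col and 4.51, 6.08 and 7.21 RPKM in Col/C24. For VSP2 the mean was 46.7 ± 9.56 RPKM among C24/Col libraries and 43.4 ± 6.34 RPKM among those of Col/C24. These ranges overlapped. LEA7 was less even, at 5.60, 18.7 and 7.74 RPKM in C24/Col and 6.96, 1.32 and 7.61 RPKM in Col/C24 (log2 difference 0.95, adjusted p = 0.883). A p that misses the threshold does not show that the hybrids are alike.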

How the data were processed

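The authors deposited 1 RPKM value per gene and library. The unit was read from the values. Reads were aligned with TopHat to TAIR10, per the submitters' processing notes. How genes were counted, on which annotation and whether by strand is not given in the sources used here. TAIR10 is a Col genome, so reads of diverged C24 alleles can be lost, in the hybrids as in C24. Of 33559 identifiers, 567 that occurred more than once were left out. TAIR10.1 served for names and promoters.

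Libraries were scaled by the median of ratios (factors 0.928 to 1.039). Genes that reached 1 RPKM in 3 or more libraries were fitted in limma 3.58.1 in R 4.3.3, on log2(scaled RPKM + 1) with a mean-variance trend. A count model was not used, because the deposited values are normalized. The main model held 9 profiles (C24/Col, Col/C24 to share the spread, and mid-parent) with the replicate number as a block, which leaves 4 residual degrees of freedom. Comparisons with each parent and between hybrids used all 12 libraries. The Benjamini-Hochberg adjustment ran over all genes tested, with a threshold of 0.05. Figures used Python 3.11.15 with matplotlib 3.10.9.

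Same-numbered libraries deviated together from their group means (correlations of 0.53 to 0.82, 18 pairs), so the numbers pair the samples, by the data and not by the labels. Other pairs gave -0.65 to 0.18 (36 pairs). Deviations from a group mean cancel out within the group. The lower values of the other pairs thus largely follow from the same-numbered ones and are no separate evidence. The fit was also run on simulated data with independent errors and with replicate effects of the form that the model assumes. Such data cannot test how far the calls depend on the pairing.

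Members and lists (20 lists, 410 genes) were chosen with earlier results of these data known. Genes were named by a rule: of called genes without overlap and with a mean of at least 5 RPKM in the higher group, the 10 largest rises and falls with a symbol and the 4 without; per list, up to 3 called members, or the 2 highest where none was called; and the 6 most above and below both parents. Other genes named were chosen after their values were seen. Alternatives covered the scaling, pseudocount, filter, block, mid-parent, organelle genes, ribosomal RNA share and each replicate left out.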

Additional observations from a re-analysis of the deposited data

How the results depend on the processing

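The main counts of 266 higher and 307 lower genes rested on the pairing. Without the replicate block they were 8 and 7, with mid-parents of shifted replicate numbers 8 and 5 or 8 and 6, and in a fit of C24/Col and the mid-parent alone 88 and 88. All 15 genes called without the block were among the 573. Values as deposited gave 131 and 151, no filter on low values 48 and 33, and a minimum of 1.5-fold 35 and 27. A geometric mid-parent gave 708 higher and 355 lower, and the ribosomal RNA share as a covariate, added after seeing the data, gave 175 and 216. Leaving out both arms of a replicate gave 5 to 17 higher and 3 to 9 lower, a C24/Col library 4 to 115 and 5 to 121, and a mid-parent profile 17 to 22 and 12 to 17. The fewest were left without both arms of replicate 2. The 2 remaining samples of an arm were fitted with the spread pooled over groups. Counts stayed within 1.5 times with a pseudocount of 0.1 or 0.5, a filter of 5 RPKM or no organelle and ribosomal RNA genes.

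The 107 genes above and 135 below both parents became 19 and 11 without the replicate block, 82 and 83 with values as deposited, and 15 to 86 and 12 to 75 without a replicate. C24/Col and Col/C24 differed at 0 genes in limma without the replicate block and with values as deposited, the only alternatives run for that test.

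Of 52 named calls, 10 were kept without the block, 46 with values as deposited, 33 with C24/Col and the mid-parent alone and 7 to 34 with a library or replicate left out. With a geometric mid-parent 3 genes reversed to positive log2 fold changes, HPL1 at 0.23, AT1G67865 at 0.11 and AT3G28320 at 0.63. Of these, AT3G28320 alone passed in that direction (limma adjusted p = 0.0015). The geometric mid-parent also moved FLC from 0.95 to 2.45, ECS1 from 0.98 to 3.49 and AT5G45428 from 1.09 to 2.48. With it HR4 moved from 0.56 to 1.93, NIT2 from -0.89 to -0.35 and CYP79F1 from -0.37 to -0.04. A pseudocount of 0.1 gave 1.4 for LTI65, 2.37 for LEA4-5 and 1.61 for AT1G72060. The geometric mean lies below the arithmetic mean by construction. Other causes were not tested. Depth limits values near 0.074 to 0.127 RPKM, which rest on 3 reads for a gene of 1500 bp.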

Other observations

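Histone and ribosomal protein genes were taken from the annotation after values were seen, and their counts are a description. Of 41 histone genes tested, 9 fell (22.0%, against 1.71% of all genes), none rose, 32 did not pass, and the median log2 fold change was -0.19. HTA13, a histone H2A gene, averaged 36.6 ± 5.17 RPKM in C24/Col and 47.0 ± 5.04 at the mid-parent (SD, n = 3; log2 fold change -0.36, limma adjusted p = 0.0187). HTA6, another H2A gene, averaged 72.6 ± 5.17 RPKM in C24/Col and 93.5 ± 11.7 at the mid-parent (log2 fold change -0.35, adjusted p = 0.0374). Of 306 ribosomal protein genes tested, 41 fell (13.4%), none rose, 265 did not pass, and 278 had a negative fold change, with a median of -0.15. Their summed level was 42038, 41388 and 42956 RPKM in C24/Col, against 44668, 48000 and 47535 RPKM at the mid-parent. Without the replicate block none of either group was called, and with a library, profile or replicate left out 0 to 3 histone and 0 to 21 ribosomal protein genes were. Copies in both families are near-identical, so single members are uncertain.

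The loci AT5G34790, AT5G34795 and AT5G34800 on chromosome 5 were each above both parents while C24 had next to no reads on them. AT5G34795 had 1.71, 1.71 and 1.4 RPKM in C24/Col, against 1.02, 1.05 and 0.866 RPKM in Col, with C24 listed at 0, 0.0295 and 0. AT5G34800 had 1.27, 1.62 and 1.26 RPKM in C24/Col, against 0.841, 0.920 and 0.751 RPKM in Col, and AT5G34790 had 1.25, 1.01 and 1.08 RPKM in C24/Col, against 0.541, 0.620 and 0.395 RPKM in Col. Both were listed at 0 in all C24 libraries. Col/C24 was at 1.60, 1.62 and 1.54 RPKM for AT5G34795. AT5G34790 and AT5G34800 reached 1 RPKM in hybrid libraries alone, so that they entered the test only through the group in which they were high.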
